A study of Mus musculus with 4 samples.

Results

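MHC class II presentation genes are the subject here, in single macrophages and monocytes of the mouse colon after 1 week on chow or on a coconut-based high-fat diet (HFD). The 6 genes were chosen by symbol, 6 of 11820 in the deposited UMI matrix, and all 6 were found there. They are H2-Aa, H2-Ab1 and H2-Eb1, which encode chains of the peptide-binding molecules, Cd74, which encodes the invariant chain, and H2-DMa and H2-DMb1, which encode the DM peptide editor.

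The study used 4 mice, all male C57/Bl6N and 6 to 7 weeks old. Chow mice are replicates 9 and 11, and mice on the HFD with 60% fat are replicates 1 and 3, so n = 2 mice per diet throughout, and p-values reflect the spread between these mice only. Live CD45+ colon lamina propria cells without lineage markers were sorted as CD11b+ CD24- cells that carried CD64 or Ly6C, and each mouse filled 1 droplet well, so mouse and library cannot be told apart. The authors kept only cells that a reference annotation named macrophages or monocytes, which limits what the matrix can show of other class II-bearing cells. The matrix held 5420 cells, between 904 and 2002 per mouse, with median depths of 3266 to 3926 UMIs, and 23 cell barcodes occurred in more than 1 library. A UMI (unique molecular identifier) tags 1 captured RNA molecule.

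Class II molecules display peptides from engulfed material to CD4 T cells. Their chains are assembled with the invariant chain, which blocks the groove and guides the complex to the endosome, where proteases degrade it and DM exchanges its remnant for other peptides. In the gut, blood monocytes enter with Ly6C and little class II, gain class II as they differentiate and end as tissue macrophages that combine high class II with the complement C1q genes. C57BL/6 mice lack I-E at the surface because of a deletion in the gene of its alpha chain, so the product of H2-Eb1 has no usual partner. Transcription of the family depends on the coactivator CIITA, which is recruited by factors bound to an X box and a Y box.

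All of the genes but Cd74 lie in the class II region of chromosome 17 (coordinates from GENCODE M21, build GRCm38). H2-DMa spans chr17:34119541-34139101 and H2-DMb1 spans chr17:34153072-34160230, both on the plus strand. H2-Ab1 lies at chr17:34257689-34269419 on the plus strand, H2-Aa at chr17:34282744-34287823 on the minus strand and H2-Eb1 at chr17:34305867-34316674 on the plus strand. H2-DMb1 has a near-identical neighbour, H2-DMb2, and reads shared by both may have been split in counting, so their separate levels are uncertain.

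RefSeq promoter windows (build GRCm38.p6, 250 bases before to 50 after the start) were matched for H2-Aa, H2-Eb1, H2-DMb1 and H2-DMa, the last with 2 starts. An X box spelled AGNAACNGA and a Y box spelled CCAAT were searched on both strands. The letters of the X box occurred in 5.35% of all 32851 windows of 300 bases, those of the Y box in 37.4%, and an X box followed by a Y box after 10 to 30 bases in 0.207%. That pair was present in H2-Eb1, with 24 bases between, and in H2-DMb1, with 25 between. H2-Aa held the Y box letters alone, and H2-DMa held no X box letters at either start. Other spellings were not searched, so a missing match does not show that a box is absent. The 120 bases before the start are shown for the chain gene that differed most between cell classes below and for its neighbour without the X box letters, with capitals marking matches on either strand. A match is a description of letters and no evidence of binding.
H2-Eb1 (chr17:34305747-34305866, plus strand): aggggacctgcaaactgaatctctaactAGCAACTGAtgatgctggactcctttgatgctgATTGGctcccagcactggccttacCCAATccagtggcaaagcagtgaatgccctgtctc
H2-Aa (chr17:34287824-34287943, minus strand): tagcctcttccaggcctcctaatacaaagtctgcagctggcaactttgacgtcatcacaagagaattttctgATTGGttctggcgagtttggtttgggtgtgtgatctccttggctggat

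Class II transcripts were among the most abundant of these cells. The 6 genes made up 8.44% of the UMIs of the median cell, between 7.78 and 2058 UMIs per 10000, and no cell lacked a UMI of all 6. The cells were divided into a low and a high range at a cut. It was placed by Otsu's method with mice weighted equally, at 219 per 10000 UMIs (2.19% of a cell's UMIs), and 633 cells (11.7%) lay between 109 and 437 per 10000. Cells above the cut are called MHC II-high.

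**Figure D1:**
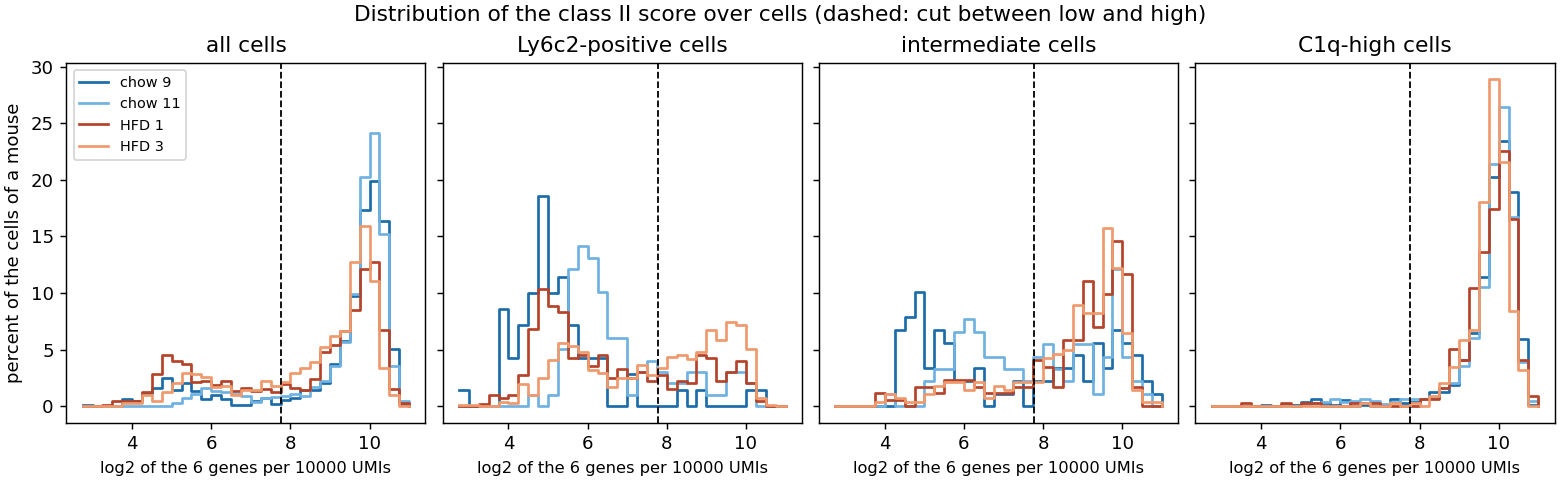
Distribution over cells of the 6 class II genes, summed, as log2 per 10000 UMIs of the cell (horizontal axis), as a percent of the cells of each mouse (vertical axis), for all cells and by class of cells, with the cut as a dashed line. Of the C1q-high cells of a mouse 94.8% to 99.4% lie above the cut, and of the Ly6c2-positive cells 5.71% to 54.2%.

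Cells were classed by genes outside the family. C1q-high cells had at least 50 UMIs of C1qa, C1qb and C1qc per 10000 and no UMI of Ly6c2, the gene of the monocyte antigen Ly6C. Ly6c2-positive cells had at least 1 Ly6c2 UMI and C1q below that limit, intermediate cells had neither, and cells with both signals were kept apart. Chow mice held 725 and 1746 C1q-high cells and only 70 and 99 Ly6c2-positive cells. HFD mice held 315 and 343 C1q-high and 396 and 712 Ly6c2-positive cells. C1q is a graded signal, and 655 cells (12.1%) had between 25 and 100 per 10000. Genes that the gates did not use were checked in the sums. Levels are given as CPM, UMIs of a gene per 1000000 UMIs of the summed cells. The monocyte gene Plac8 was at 6253 to 11746 CPM in Ly6c2-positive cells and at 45.3 to 1206 in C1q-high cells, lowest in the chow mice. The macrophage gene Apoe was at 3887 to 10910 in Ly6c2-positive cells and at 20360 to 61549 in C1q-high cells.

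Some UMIs may come from RNA released into the droplets. Among cells high in C1q, 2.68% and 3.64% carried a Ly6c2 UMI in the chow mice and 21.1% and 38.4% in the HFD mice, at median depths of 3817 to 4319 UMIs, against 44.0% to 71.8% of the cells low in C1q, at 2691 to 3767 UMIs. Igha and Jchain, genes of antibody-secreting plasma cells, summed to 37563 and 62123 CPM in the Ly6c2-positive cells of the chow mice and to 5965 and 2935 in those of the HFD mice. In that class 2, 5, 1 and 1 cells of the 4 mice held at least 100 UMIs of both genes together per 10000. The part of free RNA in the values below was not tested.

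All 6 class II genes were higher in C1q-high than in Ly6c2-positive cells in every mouse. The difference was largest for the chains and the invariant chain and smallest for DM. Over the 4 mice, with a term for each mouse, edgeR's quasi-likelihood test called 6 of 6 genes at a false discovery rate of 1%, all higher, where 17.4% of 4993 genes were called and 8.99% were called higher. The log2 difference was 2.66 ± 0.32 (SE) for H2-Eb1 (adjusted p = 5.2e-05), 2.43 ± 0.31 for Cd74 (9.1e-05), 2.40 ± 0.32 for H2-Aa (0.00011) and 2.33 ± 0.30 for H2-Ab1 (0.00010). It was 1.46 ± 0.23 for H2-DMb1 (0.00048) and 1.03 ± 0.18 for H2-DMa (0.00087). Without the mouse term 4 of 6 were called, and H2-DMa and H2-DMb1 were not.

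H2-Aa, the alpha chain of I-A, had 25367 and 25587 CPM in the C1q-high cells of chow 9 and chow 11 and 23792 and 23691 in those of HFD 1 and HFD 3. In Ly6c2-positive cells the same mice had 2279, 4790, 5934 and 10232. The 4 C1q-high values lay close together, while the Ly6c2-positive values differed among mice and did not overlap between diets. The fold between both classes was accordingly 11.1, 5.34, 4.01 and 2.32.

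H2-Ab1, the beta chain of I-A, was at 27267, 26645, 28908 and 28463 CPM in C1q-high cells in the same order of mice. In Ly6c2-positive cells it was at 2735, 5584, 7016 and 12496. The pattern was that of its partner chain, with the lowest value in chow 9 and the highest in HFD 3.

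H2-Eb1, the beta chain of I-E, was at 16968, 18208, 15674 and 15207 CPM in C1q-high cells, lower in both HFD mice than in both chow mice. In Ly6c2-positive cells it was at 1226, 2885, 3192 and 5624, and there the order of the diets was the opposite one.

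Cd74, at chr18:60803848-60812652 on the plus strand, encodes the invariant chain. Its level was 26724, 24852, 26137 and 23721 CPM in C1q-high cells, where the diets overlapped. In Ly6c2-positive cells it was 2518, 4470, 6109 and 10320.

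The DM genes differed less between the classes. H2-DMa, the alpha chain of DM, was at 2022, 2315, 2398 and 2432 CPM in C1q-high cells and at 743, 1188, 1340 and 1872 in Ly6c2-positive cells. H2-DMb1, the beta chain, was at 1257, 1345, 1531 and 1435 in C1q-high cells and at 257, 465, 672 and 1026 in Ly6c2-positive cells. The fold of C1q-high over Ly6c2-positive cells was 2.72, 1.95, 1.79 and 1.30 for H2-DMa and 4.90, 2.89, 2.28 and 1.40 for H2-DMb1. Thus H2-DMa made up 4.50% to 7.62% of the UMIs of the 6 genes in Ly6c2-positive cells and 2.03% to 2.56% in C1q-high cells, without overlap.

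**Figure D2:**
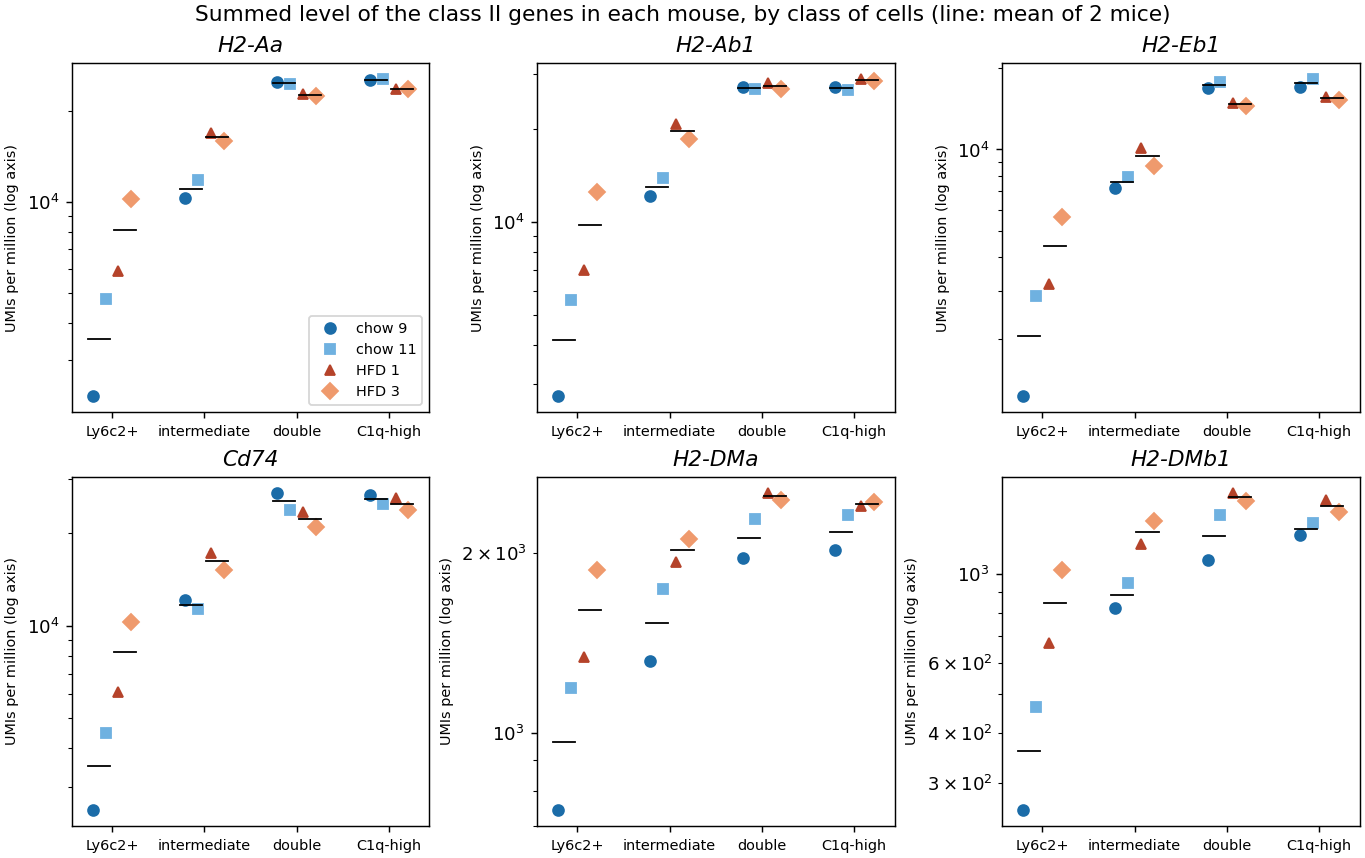
Level of each class II gene, in CPM in the summed cells of a mouse (vertical log axis), in 4 classes of cells (horizontal axis), where double marks cells with both a Ly6c2 UMI and high C1q. Points are mice and lines are means of 2 mice. H2-Aa in Ly6c2-positive cells runs from 2279 in chow 9 to 10232 in HFD 3, and in C1q-high cells it stays between 23691 and 25587.

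Intermediate cells lay between both classes. Their 6 genes summed to 43938 and 47675 CPM in the chow mice and 68127 and 61836 in the HFD mice, against 9758, 19382, 24263 and 41570 in Ly6c2-positive cells and 94950 to 99605 in C1q-high cells. Cells with both a Ly6c2 UMI and high C1q, at 88868 to 99364, were near the C1q-high level. Intermediate cells also held the most dendritic cell transcripts: the 8 markers, 7 of them detected, with Itgae at 0, summed to 340 and 543 CPM in chow and 1001 and 741 in HFD mice. Their part in the class II level of intermediate cells was not tested.

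The share of MHC II-high cells followed the same order of classes. Among C1q-high cells it was 96.3% (95% exact binomial interval 94.6 to 97.5) in chow 9, 94.8% (93.7 to 95.8) in chow 11, 97.8% (95.5 to 99.1) in HFD 1 and 99.4% (97.9 to 99.9) in HFD 3. Among Ly6c2-positive cells it was 5.71% (1.58 to 14.0), 23.2% (15.3 to 32.8), 29.3% (24.9 to 34.0) and 54.2% (50.5 to 57.9). Each interval covers counting error only. The range within a diet was wide among Ly6c2-positive cells, where HFD 3 stood apart from HFD 1 as chow 11 did from chow 9, and chow 11 and HFD 1 overlapped in their intervals.

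Compared between diets, the share of MHC II-high cells among Ly6c2-positive cells was 14.5% ± 12.4 (SD, n = 2) on chow and 41.8% ± 17.6 (n = 2) on HFD, a difference of 27.3 percentage points, which was 14.8 without HFD 3 and 18.5 without chow 9. The exact permutation test, two-sided, gave p = 0.33, the smallest that 2 mice against 2 allow. Among intermediate cells the share was 47.2% and 51.6% in chow and 77.2% and 78.1% in HFD mice, a difference of 28.2 points. With a C1q limit of 100 that difference was 16.56 points. The share was 3.04 points higher on HFD among C1q-high cells. Over all cells the order turned around, with 84.5% and 89.4% in chow and 66.1% and 74.4% in HFD mice. The diets did not overlap in any of these 4 comparisons, and each exact permutation p was again 0.33. With Ly6c2-positive cells taken from 2 UMIs the diets did overlap among them, at 4.0% and 23.6% in chow and 23.1% and 49.7% in HFD mice.

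**Figure D3:**
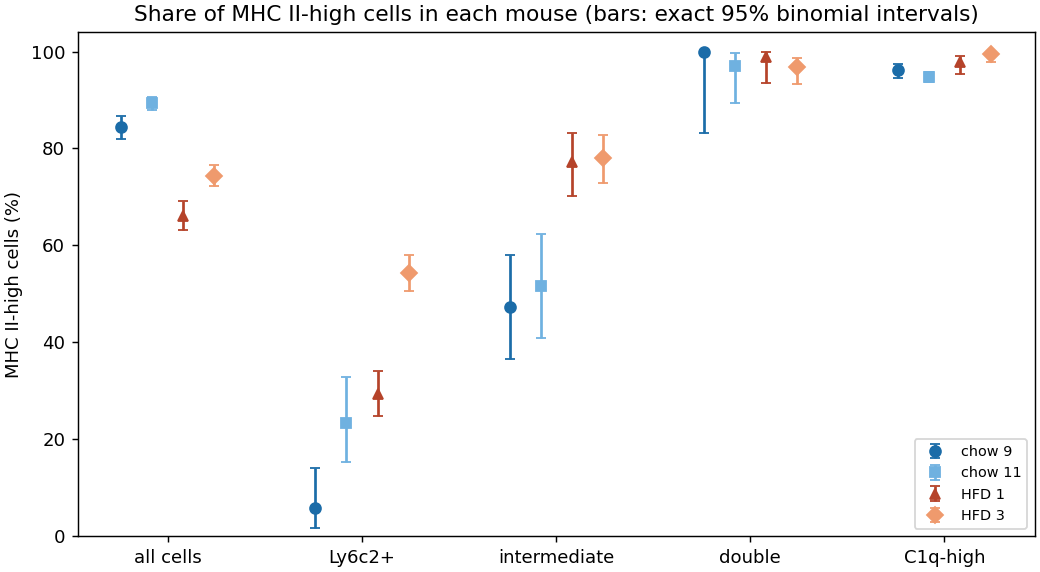
Percent of MHC II-high cells (vertical axis) in each mouse, for all cells and 4 classes (horizontal axis; double marks cells with both signals). Points are mice with exact 95% binomial intervals; HFD mice lie below chow mice over all cells and above them among Ly6c2-positive and intermediate cells.

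From 1 Ly6c2 UMI on, the share of MHC II-high cells among cells low in C1q fell with more Ly6c2 in both HFD mice. In the chow mice it rose and fell between bins. Ly6c2 was binned by UMIs per cell, not scaled to depth. With 1 Ly6c2 UMI 48.5% of the cells of HFD 1 and 68.4% of those of HFD 3 were MHC II-high, and with at least 8 UMIs 16.8% and 43.4%. Chow 9 had 10.0% and 0% in the same bins, the last of 14 cells, and chow 11 had 22.2% and 6.90%, with 42.9% of 14 cells between. Along C1q the share was lowest in the cells with the least C1q in every mouse. Below 10 UMIs of C1q per 10000 it was 19.1%, 26.2%, 36.0% and 56.4%, and from 100 to 200 it was 97.1% to 99.2%. At 200 or more it was 95.1% and 93.5% in chow 9 and chow 11, below the bin before, and 98.5% and 100% in HFD 1 and HFD 3.

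**Figure D4:**
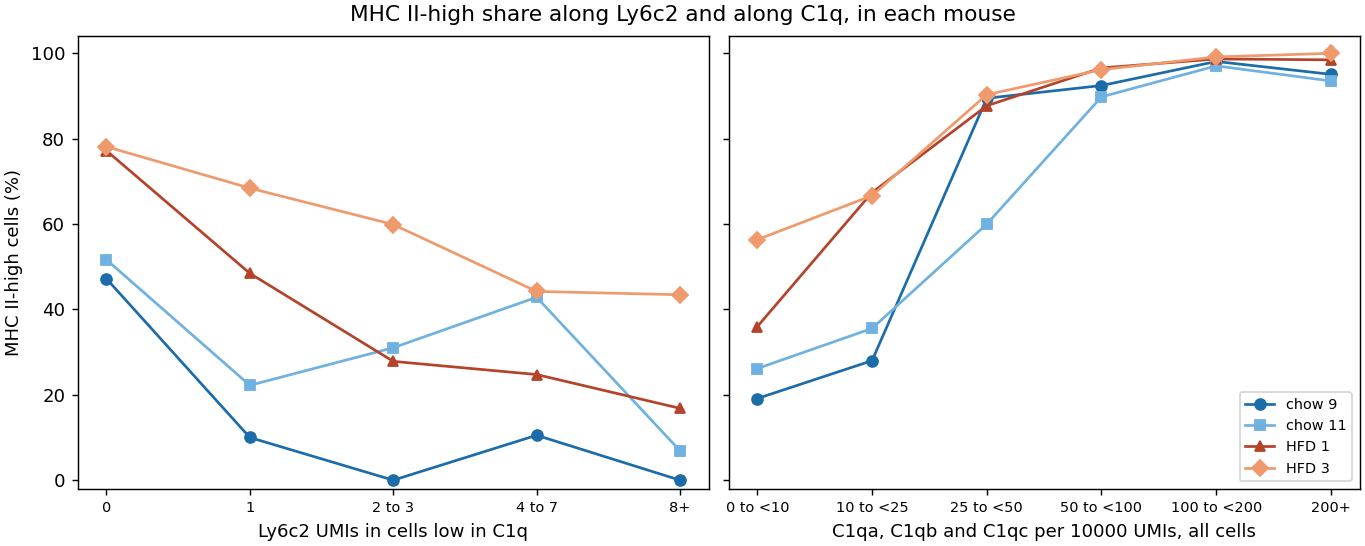
Percent of MHC II-high cells (vertical axis) by Ly6c2 UMIs in cells low in C1q (left) and by C1q UMIs per 10000 in all cells (right), 1 line per mouse. The share falls from 48.5% to 16.8% in HFD 1 and from 68.4% to 43.4% in HFD 3 between 1 and at least 8 Ly6c2 UMIs, chow bins hold as few as 14 cells, and all mice exceed 97% at 100 to 200 C1q UMIs.

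MHC II-high and MHC II-low Ly6c2-positive cells can be described side by side, although the members themselves chose them. The 386 high cells of HFD 3 had 65635 CPM of the 6 genes and the 116 of HFD 1 had 62469. The 23 of chow 11 had 61110. All were below the C1q-high level, and so was the value of chow 9, 78687, which rests on 4 cells. In the low cells the 6 genes summed to 4194, 8292, 5848 and 7711 in the 4 mice. These sums overlapped between diets in the high and in the low cells. Single genes did not all do so. In the low cells H2-DMb1 was at 148 and 179 CPM in chow and 307 and 340 in HFD mice, and H2-DMa at 674 and 838 against 873 and 1151. In the high cells H2-Eb1 and H2-DMb1 were lower in both HFD mice.

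Levels in the MHC II-low cells are given relative to C1q-high cells of the same mouse. The low cells were chosen by a sum in which H2-DMa and H2-DMb1 weigh little, so the choice itself lowers the other 4 genes more, and their difference from DM is no finding. H2-Aa was at 3.39% to 7.13%, H2-Ab1 at 3.60% to 8.99%, H2-Eb1 at 2.79% to 6.55% and Cd74 at 3.96% to 7.49%. H2-DMa stood at 33.4% to 47.3% and H2-DMb1 at 11.8% to 23.7%. Macrophage genes that the gates did not use are given on the same scale. The mannose receptor gene Mrc1 was at 1.64% to 6.32% and Pf4 at 2.29% to 6.99%, and Apoe at 8.64% to 17.5%.

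Levels of the family went together from cell to cell. Among the 712 Ly6c2-positive cells of HFD 3 Spearman's rho over the 6 pairs of H2-Aa, H2-Ab1, H2-Eb1 and Cd74 was 0.84 to 0.92, and it was 0.69 to 0.82 in HFD 1, 0.56 to 0.70 in chow 11 and 0.17 to 0.30 in the 70 cells of chow 9. In C1q-high cells it was 0.36 to 0.75 over the 4 mice. Pairs of these genes with a DM gene were looser, 0.12 to 0.41 in C1q-high cells. The cells of a mouse share a library, and low counts weaken these values, so they serve as a description.

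Summed over all cells of a mouse, class II was lower on HFD. H2-Aa was at 23097 and 24355 CPM in chow and 15100 and 16736 in HFD mice, and H2-Eb1 at 15457 and 17307 against 9466 and 10150. Cd74 was at 24434 and 23635 against 16021 and 16412. The diets did not overlap for these genes or for H2-Ab1, at 24914 and 25477 against 18319 and 20059. They overlapped for H2-DMa (1903 and 2253 against 1895 and 2155) and H2-DMb1 (1167 and 1302 against 1124 and 1269).

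edgeR's quasi-likelihood test called 3 of the 6 genes over all cells, all lower, where 16.2% of 4948 genes were called and 8.55% were called lower. The log2 fold change was -0.96 ± 0.12 (SE) for H2-Eb1 (adjusted p = 0.0022), -0.80 ± 0.12 for H2-Aa (0.0042) and -0.79 ± 0.12 for Cd74 (0.0036). H2-Ab1 missed the limit at -0.61 ± 0.12 (0.0101), as did H2-DMa at -0.26 and H2-DMb1 at -0.27. The median of the 6 was -0.70, that of all genes tested -0.01. Without HFD 1 or without HFD 3 none of the 6 was called, with fold changes of -0.919 and -0.998 for H2-Eb1, -0.73 and -0.86 for H2-Aa and -0.78 and -0.79 for Cd74. Fewer cells of a class and less RNA per cell cannot be told apart in such sums.

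The classes took different shares of the UMIs on both diets: C1q-high cells took 85.3% and 89.2% in chow mice and 32.2% and 25.9% in HFD mice, and Ly6c2-positive cells 5.90% and 4.09% against 42.7% and 42.2%. When each class was given its mean share over the 4 mice, the 6 genes summed to 73215 and 75230 CPM in chow and 77628 and 78729 in HFD mice, in place of 90973 and 94327 against 61923 and 66780. At equal shares H2-Aa was at 18493 and 19322 against 18852 and 19687, so that the diets overlapped, and H2-Ab1 was higher on HFD, at 20070 and 20515 against 22900 and 23621. H2-Eb1 remained lower on HFD without overlap, at 12347 and 13601 against 12131 and 12283. Cd74 overlapped, and H2-DMa and H2-DMb1 were higher in both HFD mice.

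Within no class was any of the 6 genes called between diets. In Ly6c2-positive cells 6 of 6 had positive log2 fold changes, with a median of 1.05 beside -0.01 over all genes tested, and 0 were called where 0.381% of 4722 genes (18) were called. The log2 fold change was 1.08 ± 0.33 for Cd74 (adjusted p = 0.17 by edgeR's quasi-likelihood test), 1.08 ± 0.37 for H2-Ab1 (0.21), 1.06 ± 0.30 for H2-DMb1 (0.14), 1.04 ± 0.37 for H2-Aa (0.22), 0.94 ± 0.39 for H2-Eb1 (0.29) and 0.58 ± 0.26 for H2-DMa (0.33). At an unadjusted p of 0.05 the test passed 737 genes, among them 5 of the 6. DESeq2 also called 0 of them. Single mice moved this result. The median was 1.36 without HFD 1, 0.62 without chow 9, 1.67 without chow 11 and 0.60 without HFD 3. With Ly6c2-positive cells taken from 4 UMIs it was 0.53. Without cells rich in Igha and Jchain it was 1.03. The 8 dendritic cell markers summed to 186 and 154 CPM in chow and 213 and 333 in HFD mice, with Clec9a and Itgae at 0 in both chow mice, and the part of dendritic cell transcripts in the fold was not tested.

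In intermediate cells 6 of 6 fold changes were positive as well, from 0.24 ± 0.17 for H2-Eb1 to 0.52 ± 0.17 for H2-Ab1 (adjusted p = 0.083, the lowest of the 6), where 2.95% of 4235 genes were called. With a C1q limit of 100 their median was 0.10 in place of 0.42, and H2-Eb1 turned to -0.09. In C1q-high cells 2 of 6 were positive. H2-Eb1 was at -0.31 ± 0.11 (adjusted p = 0.091), H2-Aa at -0.22 ± 0.11, Cd74 at -0.17 ± 0.12 and H2-Ab1 at -0.03 ± 0.11, and H2-DMa and H2-DMb1 were at 0.04 ± 0.12 and 0.07 ± 0.12. None was called there, where 7.46% of 5025 genes were. By level in CPM, H2-Eb1 and H2-Aa were lower in both HFD mice than in both chow mice in C1q-high cells. H2-Ab1, H2-DMa and H2-DMb1 were higher in both HFD mice, and Cd74 overlapped. The share of all genes without overlap between diets was not counted. For H2-Ab1 the sign of the fold change was thus opposite to that of its CPM, and over the 17 settings tried it was positive in 2. In cells with both signals 0 of 6 were called, where 3.61% of 5427 genes were.

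**Figure D5:**
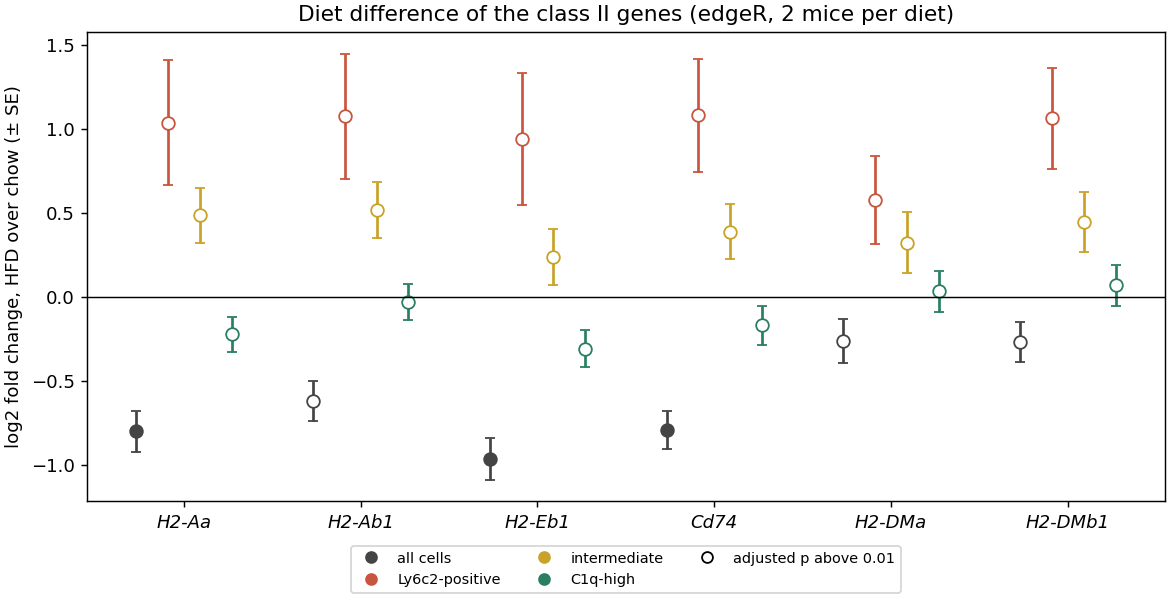
Log2 fold change, HFD over chow, of each class II gene with its SE (vertical axis), over all cells and in 3 classes of cells, from edgeR with 2 mice per diet. Filled points passed a false discovery rate of 1%: 3 genes over all cells, all lower. Every point of Ly6c2-positive and intermediate cells is above 0 and open.

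Whether the diet difference itself differed between Ly6c2-positive and C1q-high cells was tested as an interaction in the model that also fits the mice. It was called for 5 of 6 genes, all more positive in Ly6c2-positive cells, where 2.40% of 4993 genes were called and 0.861% were called in that direction. The interaction was 1.39 ± 0.28 on the log2 scale for H2-Eb1 (adjusted p = 0.00038 by edgeR's quasi-likelihood test), 1.39 ± 0.28 for H2-Aa (0.00045), 1.34 ± 0.28 for Cd74 (0.00071), 1.22 ± 0.28 for H2-Ab1 (0.0031) and 1.07 ± 0.23 for H2-DMb1 (0.00086). H2-DMa was at 0.64 ± 0.21 (0.082). The sign was the same in all 17 settings tried, and the call was not: 0 of 6 were called without chow 9, without HFD 1 or without HFD 3, with Ly6c2-positive cells taken from 2 UMIs or with a C1q limit of 25, and DESeq2 called 1. Among the 5 genes the interaction was 0.67 (H2-Ab1) to 0.85 (Cd74) without chow 9 and 0.66 (H2-DMb1) to 0.93 (H2-Aa) without HFD 3. Without HFD 1 it was 1.38 (H2-DMb1) to 1.78 (H2-Eb1).

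Clusters built without the class II genes gave a grouping that did not rest on a gate. Cells were divided into 6 clusters, numbered by rising C1qa, of which 5 had at least 20 cells in every mouse. In cluster 1, where Ly6c2 was at 982 to 1591 CPM, 12.6% and 17.6% of the cells of the chow mice and 27.7% and 51.9% of those of the HFD mice were MHC II-high. The log2 fold changes of the 6 genes had a median of 1.09 in this cluster, the lowest adjusted p was 0.017 for H2-DMb1 by edgeR's quasi-likelihood test, and 0 were called, where 1.30% of 4533 genes were. Without HFD 1 the median was 1.42, and without HFD 3 it was 0.62. In cluster 2, with Cd209a at 208 to 804 CPM, the share of MHC II-high cells was 23.8% and 70.4% against 73.8% and 83.8%, the chow values from 21 and 27 cells. In cluster 5 it was 99.4% to 100%, and none of the 6 was called in clusters 2 to 5, where 1.76%, 0.754%, 0.420% and 0.253% of genes were. In cluster 2 the median of the 6 was 0.57. Without chow 11 it was 1.62, and without chow 9 it was 0.02 with 4 of 6 positive.

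Other genes of the pathway were followed by lists. Of 34 in the matrix 25 passed the filter on low counts over all cells, and 4 were called higher and 5 lower on HFD, where 7.68% of all genes tested were called higher and 8.55% lower. Ciita, the coactivator of the family, was at 0 to 15.4 CPM in Ly6c2-positive cells, from 0, 5, 14 and 24 UMIs, and at 5.54 to 8.94 in C1q-high cells, too few for a test. The same held for Rfx5, Rfxap and Rfxank, subunits of the factor that binds the X box. None of the tested genes listed under class II transcription was called in any class.

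The other class II chains were sparse. H2-DMb2, the second DM beta chain, had 1, 1, 52 and 211 UMIs in the Ly6c2-positive cells of chow 9, chow 11, HFD 1 and HFD 3, or 4.43, 3.08, 31.9 and 89.5 CPM, and 107 to 134 CPM in C1q-high cells. It was called higher in C1q-high than in Ly6c2-positive cells (1.80 on the log2 scale, adjusted p = 0.0038 by edgeR's quasi-likelihood test), but not without chow 9 (1.53) or HFD 1 (1.88). Its diet difference in Ly6c2-positive cells did not pass (adjusted p = 0.12), while the interaction did (adjusted p = 6.2e-05). H2-Oa and H2-Ob encode DO, an inhibitor of DM. H2-Oa had 0 UMIs in the Ly6c2-positive cells of both chow mice and 27 and 34 in those of the HFD mice, and its interaction was called too (adjusted p = 0.0055), though not when any mouse was left out. The call for H2-DMb2 was lost without HFD 3. H2-Ob was at 39.2 and 51.8 CPM in C1q-high cells of chow mice and at 22.7 and 15.9 in those of HFD mice, and it fell there by 1.38 on the log2 scale (adjusted p = 0.0096), a call lost without chow 11 (-1.15), HFD 1 (-1.64) or HFD 3 (-1.11). H2-Ea was not matched, and the pseudogene H2-Ea-ps had 1 to 8 UMIs per mouse over all cells.

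Genes of antigen processing changed in both directions in C1q-high cells, where 1 of 8 tested rose and 2 fell, beside 3.88% of all genes tested called higher and 3.58% lower. Ifi30, which encodes the lysosomal thiol reductase GILT, was at 415 and 516 CPM in chow and 1434 and 1628 in HFD mice, and rose by 1.60 on the log2 scale (adjusted p = 0.00030 by edgeR's quasi-likelihood test). The lysosomal proteases cathepsin L and cathepsin B fell, Ctsl by 0.89 (adjusted p = 0.0032) and Ctsb by 0.61 (0.0077). Without HFD 3 none of these 3 was called, at 1.53 for Ifi30, -0.83 for Ctsl and -0.63 for Ctsb. Without HFD 1 neither Ctsl (-0.94) nor Ctsb (-0.57) was called, and without chow 9 Ctsb (-0.59) was not. Cathepsin S (Ctss), which cleaves the invariant chain, was at 0.31 (0.10) and was not called in any class. Between classes 4 of 8 were called, all higher in C1q-high cells, where 8.99% of all genes were called higher: Lgmn by 1.94, Ctsl by 1.12, Ctsb by 1.01 and Ctsz by 0.65. Ctsz was not called without chow 9, chow 11 or HFD 1 (0.61 to 0.65). In Ly6c2-positive cells 0 of 8 were called between diets.

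Cd83, which encodes a membrane protein that keeps class II from being turned over, fell on HFD in C1q-high cells by 1.45 (adjusted p = 0.0012) and in intermediate cells by 1.03 (0.0024, not called without HFD 3), by edgeR's quasi-likelihood test, and over all cells by 1.82. March1, the ubiquitin ligase it opposes, was not called. Of 3 costimulatory genes Cd40 rose in C1q-high cells (1.43 on the log2 scale, adjusted p = 0.0010), and neither Cd40 (1.34) nor Cd83 (-1.20) was called there without HFD 3. Cd80 and Cd86 were not called in any class. In Ly6c2-positive cells Cd40 was at 35.4 and 36.9 CPM in chow and 142 and 181 in HFD mice (2.01, adjusted p = 0.015).

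Irf1, a transcription factor of the interferon-gamma response that induces class II, was called between diets in Ly6c2-positive cells. Irf1 was at 84.1 and 95.4 CPM in the Ly6c2-positive cells of chow mice and at 422 and 358 in those of HFD mice, and rose by 1.96 on the log2 scale (adjusted p = 0.0032 by edgeR's quasi-likelihood test). Without chow 9 (1.87) or chow 11 (2.11) it was not called. In MHC II-low Ly6c2-positive cells Irf1 was at 90.9 and 105 CPM on chow and 532 and 576 on HFD. In MHC II-high ones it was at 0 and 58.6 on chow, from 4 and 23 cells, and 194 and 203 on HFD. The receptor gene Ifngr1 was lower in C1q-high than in Ly6c2-positive cells, by 0.57 (adjusted p = 0.0038), a call lost without chow 11 (-0.61), HFD 1 (-0.53) or HFD 3 (-0.59). Ifngr2, Jak1 and Jak2 were not called in any class.

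The genes whose level was most like that of the 6 summed, over 16 sums of class and mouse, were Cxcl16 (Pearson's r of log2 levels 0.99), Sdc4 (0.98), Ifi27 (0.96), Creb5 (0.95) and Il7r (0.95), followed by Basp1, Abca1, Axl, Apol7c and Fth1 at 0.94 to 0.95. Cxcl16 encodes a membrane-bound chemokine and ranged from 142 to 1569 CPM. The 16 sums come from 4 libraries and differ in class and depth, so these values are a description over 4942 genes.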

How the data were processed

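Sorted colon lamina propria cells of 4 mice were profiled with droplet 3' libraries. The authors counted UMIs with kallisto 0.46.0 and bustools 0.39.2 (build mm10, per the labels' processing notes), filtered cells by library size, genes and mitochondrial share, and deposited raw UMI counts of 11820 genes in 5420 cells. Cells were assigned to mice by the suffix of their column names. Reads of near-identical genes can be split or lost in such counts, and filtering by annotation removes cells of other types. The members and gene lists were chosen with earlier results of these data known.

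Counts were summed per mouse and class. Levels are CPM (UMIs per 1000000 UMIs of the sum). Genes above 1 CPM in at least 2 of 4 sums and with a UMI in at least 5% of cells were tested with edgeR 4.0.16 (TMM, quasi-likelihood test, Benjamini-Hochberg adjustment over all genes tested, false discovery rate 1%) in R 4.3.3. The class contrast and the interaction had a term for each mouse. Single shares were compared with exact permutation tests, and intervals are exact binomial at 95%. Clusters were built with scran 1.30.0 without class II genes. Of all cells 38 were marked as doublets (0.701%) and kept, with an alternative without them. In simulated data where 200 genes had a log2 change of 2, the test recovered 85.2% in Ly6c2-positive cells (4722 genes) and 99.0% in C1q-high cells (5025 genes). Every gene was given the same dispersion in these data. The log2 fold changes of the 6 genes in Ly6c2-positive cells were smaller, 0.58 to 1.08, so the 85.2% does not apply to them. Named were the 6 genes, listed pathway genes called in at least 1 class, Ciita and the other class II chains, and the 10 genes most like the summed members (on log2 of CPM + 1). Some other listed genes are named for context, 1 that the rule names is not reported here, and Mrc1, Pf4, Apoe and Plac8 were named after their values were seen. Alternatives were other scalings, filters, gates and cuts, DESeq2 1.42.0, thinning each cell to 1000 UMIs and leaving out each mouse.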

Additional observations from a re-analysis of the deposited data

Results flagged for a closer look

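The diet difference was tested to differ between Ly6c2-positive and C1q-high cells for 5 of the 6 genes, by edgeR's quasi-likelihood interaction test with 2 mice per diet. The interaction on the log2 scale was 1.39 for H2-Eb1, 1.39 for H2-Aa, 1.34 for Cd74, 1.22 for H2-Ab1 and 1.07 for H2-DMb1. Levels of each of these genes were higher in both HFD mice than in both chow mice among Ly6c2-positive cells. The 5 calls were lost without chow 9 (0.67 for H2-Ab1 to 0.85 for Cd74), without HFD 1 (1.38 for H2-DMb1 to 1.78 for H2-Eb1) or without HFD 3 (0.66 for H2-DMb1 to 0.93 for H2-Aa), and the highest adjusted p over the settings tried was 0.79 among these genes.

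Among 25 other genes of the pathway tested, 4 passed the same test, where 2.40% of 4993 genes did. The interaction was 1.57 for Irf1, -0.86 for Ifi30 and 3.98 for H2-DMb2, which had 1 UMI in the Ly6c2-positive cells of each chow mouse. For H2-Oa it was 8.72, a fitted value that depends on the prior count and is no bound, since both chow mice had 0 UMIs there. Irf1 was not called without chow 11, HFD 1 or HFD 3, and Ifi30 without the same mice. H2-DMb2 was not called without HFD 3, and H2-Oa when any 1 mouse was left out.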

How the results depend on the processing

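No paired analysis was possible because chow and HFD mice share no replicate number. Between classes of the same mice, the fit without the replicate block called 513 genes and 4 of the 6 members, against 870 and 6 with it.

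Class II calls and median fold changes moved as follows. Over all cells 0 to 4 of 6 were called when 1 mouse was left out (0 without HFD 1 or HFD 3). In Ly6c2-positive cells the median of the 6 was 0.60 to 1.67 when 1 mouse was left out. With no filter on low counts 5 were called there, where 1.56% of 11614 genes were. The median of all genes was then 0.20 in place of -0.01. In intermediate cells no filter gave 3, where 2.55% of 11294 genes were called. With 1 mouse left out, the median of the 6 was 0.62 to 1.42 in cluster 1 and 0.02 to 1.62 in cluster 2. The interaction was called for 0 of 6 with Ly6c2-positive cells from 2 or 4 UMIs, with a C1q limit of 25, without doublets and the deepest cells or with cells thinned to 1000 UMIs, for 2 with a C1q limit of 100, for 1 by DESeq2, and for 0 to 5 when 1 mouse was left out. The cause was not tested.

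Counts over all genes moved too. Over all cells they were 150 to 920 without 1 mouse, 1306 by the likelihood-ratio test, 1218 with no filter and 427 thinned. In Ly6c2-positive cells they were 3 to 83, 149 and 181, with 54 by DESeq2, 36 from 4 UMIs, 53 and 50 at C1q limits of 25 and 100, and 10 thinned. In intermediate cells the likelihood-ratio test gave 263, no filter 288 and a C1q limit of 100 also 288. In C1q-high cells they were 21 to 446, 656 and 625, and 148 at a limit of 100. Between classes they were 560 to 762 without 1 mouse, 1359 with no filter and 338 thinned.

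The diet difference in the share of MHC II-high intermediate cells was 25.06 points at a cut of 437 per 10000, 24.68 with Ly6c2 from 4 UMIs, and 35.34 and 16.56 at C1q limits of 25 and 100. In C1q-high cells it was 1.87 at a cut of 109. Among Ly6c2-positive cells it was 14.8 to 39.7 points without 1 mouse, lowest without HFD 3 and highest without HFD 1. Signs of all 6 genes held in 17 of 17 settings in Ly6c2-positive cells. The chow mice had 70 and 99 Ly6c2-positive and 89 and 91 intermediate cells, which limits the precision of their shares.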
